A study of Mus musculus with 54 samples.

Results

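In mouse microglia given alpha-synuclein (aSyn), mRNA of ferritin heavy chain (Fth1) and of the divalent metal transporters Slc11a1 and Slc11a2 was higher. It exceeded the level of untreated microglia in each of 4 experiments. These differences passed the edgeR test when libraries were compared within experiments, but not in the edgeR test without that term. The test within experiments called 19.2% of all genes, and 8.95% as higher. The Slc11a2 call depended on single experiments and was lost, for example, without experiment 4. The Fth1 and Slc11a1 calls were kept whichever experiment was left out. Ferritin light chain (Ftl1) and transferrin receptor (Tfrc) mRNA showed no difference that passed a test. Fth1, Slc11a1, Slc11a2, Ftl1 and Tfrc belong to a set of 10 genes that store, import, export or sense iron. The set was taken by gene symbol from the table of read counts and holds Fth1, Ftl1, Tfrc, Steap3, Slc11a1, Slc11a2, Slc40a1, Ncoa4, Ireb2 and Aco1. All 10 are among the 16632 genes of the table and among the 13169 that passed the filter on low counts, so no member was lost.

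The cells were primary microglia of C57BL/6 mice, cultured from pooled neonatal brains and shaken off the astrocyte layer on which they had grown. Untreated microglia (6 libraries from 4 experiments) were compared with microglia given 1 µM Atto-488-labeled aSyn for 14 h and not mixed with other cells (4 libraries, 1 per experiment), here called aSyn-treated. Donors had received the same aSyn, acceptors had received CellTracer Violet and no aSyn, and the 2 populations were put together for 15, 30, 60, 150 or 300 min and then separated by cell sorting. A 0 min group of each was also sampled. There were 3 donor libraries at 0 and 60 min and 4 at 15, 30, 150 and 300 min, and 3 acceptor libraries at 0 and 300 min and 4 at the other times. All mice were of 1 strain with no genetic change named. The study asked how the transcriptome of microglia changes while they pass aSyn to neighbouring microglia. The labels do not say whether untreated and aSyn-treated cells were also sorted. In a comparison of acceptors with untreated cells, sorting, co-culture and the CellTracer Violet dye therefore cannot be told apart.

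Iron enters most cells bound to transferrin through the transferrin receptor, is reduced in the endosome by Steap3 and leaves the endosome through Slc11a2 (DMT1). Phagocytes also carry Slc11a1 (Nramp1), which moves iron and manganese out of the phagosome and lysosome, where microglia break down engulfed protein and cells. Iron that is not used is stored in a shell of ferritin heavy and light chains, is released again when Ncoa4 brings ferritin to the lysosome, and leaves the cell through ferroportin (Slc40a1). The iron regulatory proteins, encoded by Aco1 and Ireb2, bind hairpins called iron-responsive elements when iron is scarce. Binding in the 5′ untranslated region (UTR) blocks translation of ferritin and ferroportin, and binding in the 3′ UTR protects Tfrc mRNA from decay, so part of this control does not show in mRNA levels.

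The hairpins are shown because iron acts through them on ferritin, ferroportin and transferrin receptor mRNA. UTRs in the mouse annotation GENCODE vM21 (build GRCm38) were searched on the gene's own strand for the loop CAGTGN with 5 paired bases on either side and an unpaired C below them. The search found 1 hairpin each in the 5′ UTRs of Fth1, Ftl1 and Slc40a1 and 4 in the 3′ UTR of Tfrc. Such a hairpin was found in the 5′ UTR of 0.154% of 20088 genes and in the 3′ UTR of 0.618% of 20868 genes. Each is written 5′ to 3′ on the gene's strand as 29 bases, with the 6 bases of the loop in capitals.
Fth1 5′ UTR, chr19:9982732-9982760, plus strand: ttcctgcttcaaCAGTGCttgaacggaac
Ftl1 5′ UTR, chr7:45459779-45459807, minus strand: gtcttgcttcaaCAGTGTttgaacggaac
Slc40a1 5′ UTR, chr1:45925465-45925493, minus strand: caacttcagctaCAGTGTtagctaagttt
Tfrc 3′ UTR, chr16:32631219-32631247, plus strand: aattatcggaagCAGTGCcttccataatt
Tfrc 3′ UTR, chr16:32631598-32631626, plus strand: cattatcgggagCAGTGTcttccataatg
Tfrc 3′ UTR, chr16:32631663-32631691, plus strand: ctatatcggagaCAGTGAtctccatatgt
Tfrc 3′ UTR, chr16:32631710-32631738, plus strand: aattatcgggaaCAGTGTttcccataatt
The Fth1 and Ftl1 hairpins were identical at 26 of 29 positions, so the mRNAs of the ferritin chains carry nearly the same element. For the other members this search found no match, which says only that these letters and pairs are not in the annotated UTRs. Slc11a2 is known to have an isoform with an iron-responsive element in its 3′ UTR, which this strict pattern did not find.

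Reads came from 3′ end libraries (QuantSeq 3′ FWD), in which each transcript yields reads near its poly(A) tail. Library totals ranged from 7807389 to 15537493 counts, and the rarest member, Steap3, had 50 to 419 counts in a library while Fth1 had 90280 to 563943. Levels are given as CPM, the counts scaled to a common library total with edgeR's TMM factors, which makes a gene's level comparable between libraries but not between genes. Libraries with the same number in their titles are called an experiment, and the labels give passage 3 for experiment 1, passage 1 for experiment 2 and passage 2 for experiments 3 and 4. Differences between experiments and between passages cannot be told apart for experiments 1 and 2. The 2 untreated libraries numbered 2 were summed, as were the 2 numbered 4, giving 4 untreated units among a total of 52 units. The libraries of experiment 4 carry a separate run of facility numbers and gave 18.2% of their counts to the ribosomal RNA precursor Rn45s, against 6.60% in experiments 1 to 3. In untreated cells the microglia markers summed to 3761 to 4942 CPM, and in aSyn-treated cells to 2225 to 4800 CPM, and all 9 passed the filter on low counts. Markers of astrocytes, the layer from which the cells were shaken, summed to 11.3 to 139 CPM in untreated and 11.2 to 29.3 CPM in aSyn-treated cells. Oligodendrocyte lineage markers summed to more, 114 to 513 CPM in untreated and 77.9 to 250 CPM in aSyn-treated cells. The part of astrocytes and oligodendrocytes in the differences between groups was not tested. In bulk samples fewer cells of a type and less RNA per cell cannot be told apart. The labels do not say whether experiments used separate animals, so p-values measure only the spread between these samples, which may be technical.

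What aSyn exposure alone changed was asked by setting aSyn-treated beside untreated cells. Fth1, Slc11a1 and Slc11a2 mRNA was higher in aSyn-treated cells in 4 of 4 experiments. Ftl1, Tfrc, Steap3, Ncoa4, Ireb2, Aco1 and Slc40a1 did not pass the test. The edgeR quasi-likelihood test without a term for the experiment called 0 of the 10 members at an adjusted p-value under 0.05, where it called 2.5% of all 13169 genes. At an unadjusted p-value under 0.05 it counted 3 members, and DESeq2 called 1 (Fth1), where it called 4.58% of all genes. With the experiment as a block, which compares libraries of the same number, edgeR called 3 of 10 members (Fth1, Slc11a1 and Slc11a2), all higher, where it called 19.2% of all genes and 8.95% as higher. The median log2 difference over the 10 members was 0.01 with the block and that over all genes was -0.05. When the paired untreated libraries were entered separately, edgeR without the block also called these 3 genes, where it called 4.67% of all genes. That fit counts the same-numbered untreated libraries of experiments 2 and 4 as independent, which they may not be, so it is not added support. Libraries of 1 experiment tended to be high or low together, so both fits are given.

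Fth1 encodes the ferritin chain that oxidizes iron for storage. In untreated cells of experiments 1 to 4 its level was 14086.5, 11079, 15849 and 16912 CPM. In aSyn-treated cells it was 19342, 24694, 36425 and 38947 CPM. The groups did not overlap, as for 8.1% of all genes, and the level was 1.37-fold to 2.30-fold higher within an experiment. The mean went from 14482 ± 2550.2 to 29852 ± 9363 CPM (SD, n = 4 each). The log2 difference was 1.04 (SE 0.33, edgeR adjusted p 0.0858) without the block and 0.99 (SE 0.14, edgeR adjusted p 3.69e-06) when the block was used. The blocked call was also made without any 1 of the 4 experiments, with log2 differences of 0.93 to 1.20.

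Ftl1 encodes the ferritin chain that helps iron to form the mineral core. Its level was 21328, 16763, 20003 and 16540 CPM in untreated cells of experiments 1 to 4. In aSyn-treated cells it was 17907, 17341, 24441 and 12602 CPM. The groups overlapped, and Ftl1 was higher in 2 experiments and lower in the other 2. Its log2 difference was -0.05 (edgeR adjusted p 0.952) without the block and -0.08 (edgeR adjusted p 0.719) with it.

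Because both ferritin mRNAs come from the same library, the number of Fth1 counts per Ftl1 count is free of library scaling. In untreated cells it was 0.660, 0.661, 0.792 and 1.02 in experiments 1 to 4. In aSyn-treated cells it was 1.08, 1.42, 1.49 and 3.09. Within an experiment this ratio was 1.64-fold to 3.02-fold higher in aSyn-treated cells, in 4 of 4 experiments, so that heavy chain reads outnumbered light chain reads in all 4 aSyn-treated libraries and in 1 of 4 untreated units. A ratio shows unequal change of the 2 mRNAs and not which of them changed. Reads from Ftl1 can be shared with 3 named pseudogenes (Ftl1-ps1, Ftl1-ps2 and Ftl2-ps) and with the overlapping genes Gm22133 and Gm10252. How far this affects the Ftl1 level was not measured. Pseudogenes were looked up by name only, so copies of Fth1 under other names would have been missed.

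**Figure D1:**
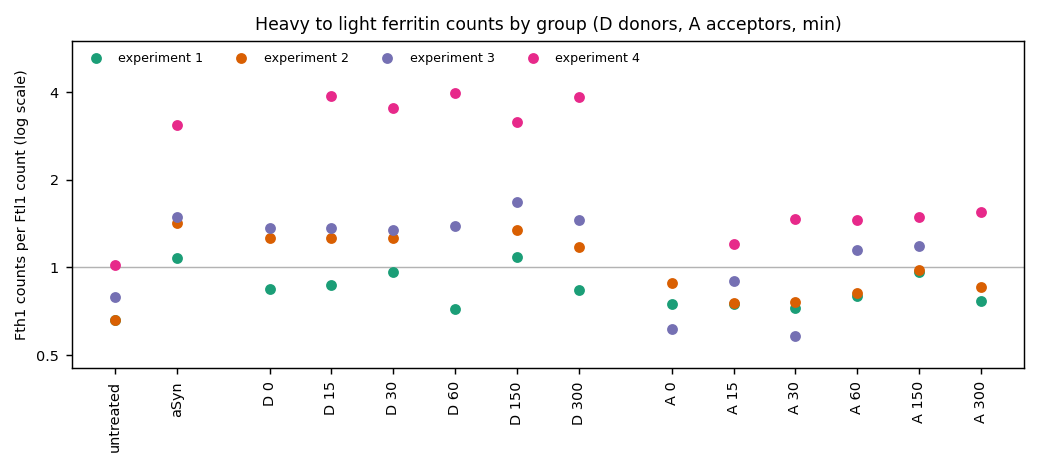
Fth1 counts per Ftl1 count (log axis) in every unit of the 14 groups, coloured by experiment. The aSyn-treated units sit between 1.08 and 3.09 and the untreated units between 0.660 and 1.02, and experiment 4 is the highest in each group that holds it.

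Slc11a1 encodes Nramp1, the metal exporter of the phagosome membrane. Its level was 161, 113, 211 and 129 CPM in untreated cells of experiments 1 to 4. In aSyn-treated cells it was 206, 258.98, 397 and 312 CPM. Each experiment showed the higher value in aSyn-treated cells, by 1.29-fold to 2.42-fold, although the group ranges touched because untreated cells of experiment 3 were at 211 CPM. The log2 difference was 0.94 (SE 0.32, edgeR adjusted p 0.11) without the block and 0.90 (SE 0.12, edgeR adjusted p 1.97e-06) with it. The blocked call was also made without any 1 experiment (0.82 to 1.13).

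Slc11a2 encodes DMT1, which carries ferrous iron out of the endosome. Its level was 82.5, 94.9, 102 and 56.6 CPM in untreated cells of experiments 1 to 4. In aSyn-treated cells it was 118, 122, 115 and 212 CPM. The groups did not overlap, as for 8.1% of all genes, but experiment 4 held both the lowest untreated and the highest aSyn-treated level. The log2 difference was 0.76 (SE 0.26, edgeR adjusted p 0.109) without the block and 0.69 (SE 0.20, edgeR adjusted p 0.0125) with it. With the block the call was lost without experiment 4 (0.36, edgeR adjusted p 0.197) and without experiment 1 (edgeR adjusted p 0.0546). Slc11a2 overlaps Gm5475 on the opposite strand, and it is not stated whether counting used the strand.

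**Figure D2:**
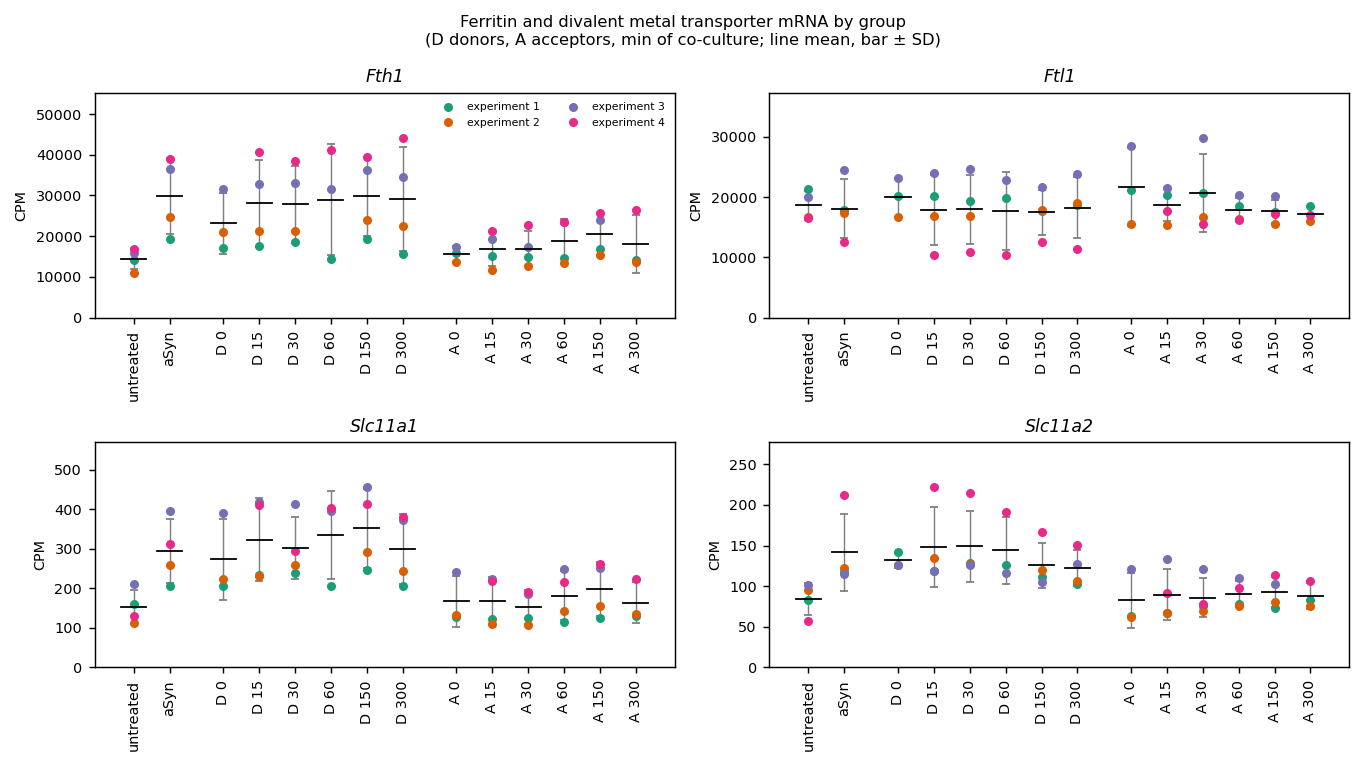
CPM of Fth1, Ftl1, Slc11a1 and Slc11a2 in every unit of the 14 groups, 1 point per experiment, with a black line at the group mean and a grey bar for the SD. Fth1, Slc11a1 and Slc11a2 have higher means in each of the 7 groups given aSyn than in any of the 7 groups not given it, and Ftl1 does not.

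Tfrc encodes the receptor that brings transferrin-bound iron into the cell. It was at 37.6, 24.1, 46.9 and 41.1 CPM in untreated cells and at 26.9, 28.1, 43.8 and 25.9 CPM in aSyn-treated cells of experiments 1 to 4. Aside from experiment 2 the aSyn-treated level was the lower one, and the groups overlapped. The log2 difference of Tfrc was -0.26 without and -0.25 with the block, with edgeR adjusted p-values of 0.65 and 0.17. Steap3, the endosomal reductase, was at 9.08, 18.3, 12.4 and 11.9 CPM in untreated and 8.99, 10.7, 12.9 and 6.20 CPM in aSyn-treated cells. Its log2 difference was -0.42 without and -0.45 with the block (edgeR adjusted p 0.488 and 0.149). Neither Tfrc nor Steap3 passed the test in either fit.

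Slc40a1 encodes ferroportin, the only known iron exporter of mammalian cells. Its level was 249.7, 92.8, 117 and 228.3 CPM in untreated cells of experiments 1 to 4. In aSyn-treated cells it was 385, 335, 161 and 164 CPM. Experiments 1 to 3 were higher with aSyn, by up to 3.61-fold, and experiment 4 was lower, at 0.720-fold. The log2 difference was 0.61 (SE 0.40, edgeR adjusted p 0.454) without the block and 0.66 (SE 0.33, edgeR adjusted p 0.156) with it. With the block and without experiment 4 Slc40a1 was called higher (0.96, edgeR adjusted p 0.0188), in a fit that called 12.4% of all genes.

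Ncoa4, Ireb2 and Aco1 act on stored iron and on its sensing. Ncoa4, the receptor that takes ferritin to the lysosome, had 141 ± 16.8 CPM in untreated and 118 ± 21.4 CPM in aSyn-treated cells (SD, n = 4 each), and its log2 difference was -0.25 (edgeR adjusted p 0.55). Ireb2, which encodes iron regulatory protein 2, had 35.5 ± 7.05 and 37.5 ± 3.11 CPM (SD, n = 4 each). Aco1, which encodes iron regulatory protein 1, had 32.4 ± 2.91 and 30.7 ± 2.35 CPM (SD, n = 4 each). Ireb2 and Aco1 had log2 differences of 0.08 and -0.08 without the block, and neither of them nor Ncoa4 was called in either fit.

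The comparison of donors with acceptors at the same time asked how cells given aSyn differ from cells that meet it only through their neighbours. Only acceptors had received CellTracer Violet, so in this comparison the dye and the exposure to labeled aSyn cannot be told apart. With the block, Slc11a1 mRNA was higher in donors at all 6 times, Fth1 at 15, 30, 150 and 300 min and Slc11a2 at 15 and 30 min, while Steap3 was lower at 30 min. Without the block edgeR called 0 of 60 member-by-time results, 14 had an unadjusted p-value under 0.05, and DESeq2 called 0. The shares of all genes called without the block were 0.251, 0.888, 0.805, 0.418, 0.167 and 0.0304% at 0, 15, 30, 60, 150 and 300 min. DESeq2 called 0.63, 1.61, 1.69, 0.926, 0.668 and 0.152% of all genes. With the block edgeR called 13 of 60, 12 higher and 1 lower in donors. These were 1, 3, 4, 1, 2 and 2 of 10 members at the 6 times, where the block called 4.28, 9.57, 10.8, 6.7, 5.19 and 1.38% of all genes. Of all genes it called 2.68, 5, 5.5, 3.62, 2.95 and 0.957% as higher in donors, and 5.25% as lower at 30 min.

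Slc11a1 was higher in donors in 21 of 21 same-experiment pairs, a count that 2.35% of all genes reached. At 15 min it was at 233.9, 230.2, 418 and 409.6 CPM in donors of experiments 1 to 4 and at 123, 109, 224 and 217 CPM in acceptors. No acceptor reached the lowest donor at 15 min or 30 min, which 5.85 and 5.83% of all genes also showed in either direction. With the block the log2 differences from 0 to 300 min were 0.72, 0.95, 1.00, 0.78, 0.85 and 0.72 (edgeR adjusted p 0.00173, 2.38e-06, 8.54e-07, 0.000224, 3.67e-05 and 0.00223). Those at 15, 30, 60 and 150 min were also called without any 1 experiment. The call for Slc11a1 at 0 min was lost without experiment 2 or 3 (edgeR adjusted p 0.0593 and 0.0757), and that at 300 min without experiment 2 (edgeR adjusted p 0.098).

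Fth1 was higher in donors in 20 of 21 pairs, which 4.59% of all genes reached or passed. At 30 min it was at 18692, 21246, 33057 and 38444.5 CPM in donors and at 14944, 12758.5, 17395 and 22695 CPM in acceptors of experiments 1 to 4. Each donor exceeded its own acceptor, but the donors of experiments 1 and 2 lay below the acceptors of experiment 4. With the block Fth1 was called at 15, 30, 150 and 300 min, with log2 differences of 0.69, 0.68, 0.52 and 0.58 (edgeR adjusted p 0.00112, 0.00126, 0.0224 and 0.0425). It was not called at 0 min (0.51, edgeR adjusted p 0.0587) or 60 min (0.45, edgeR adjusted p 0.0647). The size differed between experiments: the median log2 difference of same-experiment pairs was 0.16 in experiment 1 and 0.71, 0.76 and 0.76 in experiments 2, 3 and 4. Of the Fth1 calls, the one at 30 min was also made without any 1 experiment. The call at 15 min was lost without experiment 2 (edgeR adjusted p 0.0559), and those at 150 and 300 min were lost without experiment 2, 3 or 4, with edgeR adjusted p-values of 0.0717 to 0.351.

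Slc11a2 was higher in donors in 20 of 21 pairs, which 4.59% of all genes reached or passed. At 30 min donors of experiments 1 to 4 had 128, 128, 126 and 215 CPM and acceptors 75.1, 69.3, 121 and 78.2 CPM, without overlap, as for 5.83% of all genes. At 0 and 60 min donors and acceptors did not overlap either, which 16.8 and 7.8% of all genes showed, with 3 donors at each time. Donors and acceptors of experiment 3 were close at all times, with a median log2 difference of 0.06, against 0.73, 0.88 and 0.97 in experiments 1, 2 and 4. With the block Slc11a2 was called at 15 min (0.73, edgeR adjusted p 0.0177) and 30 min (0.78, edgeR adjusted p 0.00955). Both calls were lost without experiment 1 or 2 (edgeR adjusted p 0.0791 to 0.154), and that at 15 min also without experiment 4 (edgeR adjusted p 0.069).

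Steap3 was lower in donors in 17 of 21 pairs, which 15% of all genes reached or passed. At 30 min it was at 8.94, 9.42, 10.9 and 6.45 CPM in donors of experiments 1 to 4 and at 11.6, 15.3, 18.2 and 15.5 CPM in acceptors. The 2 groups did not overlap, as for 5.83% of all genes in either direction. The log2 difference of Steap3 at 30 min was -0.79 (SE 0.22, edgeR adjusted p 0.0171) in the blocked fit and -0.76 (edgeR adjusted p 0.262) in the other. The blocked call was lost without experiment 2, 3 or 4 (edgeR adjusted p 0.0994, 0.0895 and 0.10). In experiment 1 Steap3 was higher in donors in 4 of 6 pairs, and in experiments 2, 3 and 4 it was lower in 15 of 15.

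Slc40a1, Ftl1, Ncoa4 and Tfrc went in opposite directions in different experiments. Slc40a1 was higher in donors in 11 of 11 pairs of experiments 1 and 2, with median log2 differences of 1.11 and 1.45, and lower in 5 of 5 pairs of experiment 4 (-0.44). Ftl1 was lower in donors in 5 of 5 pairs of experiment 4 (median -0.57) and higher in 5 of 5 of experiment 2 (0.13). Ncoa4 was higher in 6 of 6 pairs of experiment 1 (0.50) and lower in 5 of 5 of experiment 4 (-0.29). Tfrc was higher in 5 of 5 pairs of experiment 2 (0.15) and lower in 5 of 5 of experiment 3 (-0.18). None of these 4 genes was called at any time in the full fits, and Slc40a1 was called higher in donors at 15 and 30 min with the block and without experiment 4 (1.02 and 1.05, edgeR adjusted p 0.0187 and 0.0132), where that fit called 6.66 and 8.58% of all genes. Ireb2 was higher in donors in 7 of 21 pairs and Aco1 in 6, and neither was called.

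**Figure D3:**
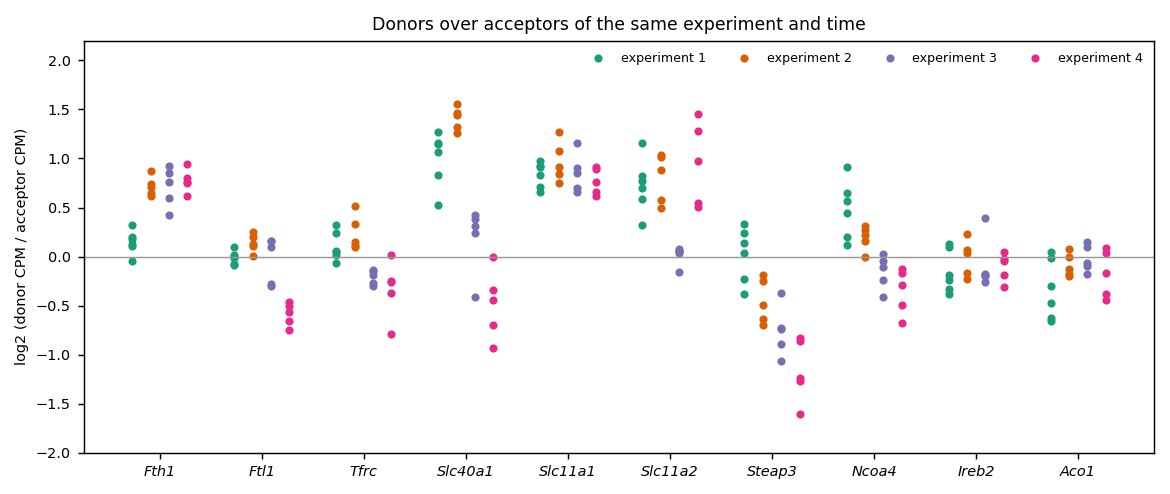
Log2 ratio of donor to acceptor CPM for each same-experiment pair (21 pairs), by gene and experiment. All Slc11a1 points lie above 0, while the points of Slc40a1 lie above 0 in experiments 1 and 2 and below it in experiment 4.

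Over all times, cells given aSyn (aSyn-treated cells and donors) can be set beside those not given it (untreated cells and acceptors) within an experiment. This is a description of ranges chosen after the values were seen, with no test. For Slc11a1 the ranges of given and not given units were apart in 4 of 4 experiments, as for 0.691% of all genes (higher). In experiment 1 the 7 units not given aSyn reached at most 161 CPM and the 7 given it were at 206 CPM or more. Fth1 and Slc11a2 were apart in 3 of 4 experiments, and 2.18% of all genes were apart and higher in at least 3. The exception was experiment 1 for Fth1 (not given 14086.5 to 16906 CPM, given 14295 to 19342 CPM) and experiment 3 for Slc11a2 (102 to 133 CPM and 105 to 127 CPM). Steap3 was apart and lower with aSyn in experiments 2 and 4, and 4.73% of all genes were apart and lower in at least 2. Slc40a1 was apart and higher in experiment 2, where the given units were at 269.03 to 335.5 CPM and the others at 92.8 to 151 CPM, as were 4.1% of all genes in that experiment. Ftl1 was apart in experiment 4, where the 6 given units were at 10349 to 12602 CPM and the 6 not given at 15499 to 17623 CPM, and 14.2% of all genes were apart and lower in that experiment.

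The 14 group means followed exposure. For Fth1, Slc11a1 and Slc11a2 the 7 groups given aSyn had the 7 highest means, and for Steap3 they had the 7 lowest. For Fth1 the order ran from aSyn-treated cells (29852 ± 9363 CPM) through donors at 150 min (29773 ± 9710 CPM), 300, 60, 15 and 30 min to donors at 0 min (23207 ± 7493 CPM). Below them came acceptors at 150 min (20457 ± 5125 CPM), 60, 300, 30, 15 and 0 min (15666 ± 1891 CPM), and untreated cells were the lowest. Neighbours in this order differed by less than the SD over experiments of either group, also donors at 0 min and acceptors at 150 min. The group means do not all hold the same experiments. Experiment 4, the highest for Fth1 in each group that held it, was missing from donors and acceptors at 0 min. Experiment 2 was missing from donors at 60 min and experiment 3 from acceptors at 300 min. In experiments 1 to 3 Fth1 was at 17083, 20976 and 31563 CPM in donors at 0 min and at 17538, 21278 and 32753 CPM at 15 min. For Slc11a1 the means ran from 351 ± 98.9 CPM in donors at 150 min to 153 ± 41.9 CPM in acceptors at 30 min. The lowest Slc11a1 mean among groups given aSyn was 274 ± 102 CPM (donors at 0 min) and the highest among the others 198 ± 68.8 CPM (acceptors at 150 min). For Slc11a2 the corresponding neighbours were 122 ± 22.1 CPM (donors at 300 min) and 92.6 ± 18.5 CPM (acceptors at 150 min), in a range from 149 ± 43.7 CPM (donors at 30 min) to 82.4 ± 33.9 CPM (acceptors at 0 min). Steap3 means lay between 15.2 ± 2.71 CPM (acceptors at 30 min) and 7.38 ± 3.75 CPM (donors at 60 min).

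The other members had no such order. Slc40a1 means ran from 276 ± 100.1 CPM in donors at 30 min to 145 ± 41.8 CPM in acceptors at 300 min, and acceptors at 15 min (208 ± 146 CPM) stood above donors at 300 min (207 ± 43.2 CPM). Ftl1 means lay between 21719 ± 6491 CPM (acceptors at 0 min) and 17150 ± 1288 CPM (acceptors at 300 min). Tfrc was highest in donors at 300 min (38.7 ± 11.3 CPM) and lowest in donors at 60 min (28.6 ± 5.48 CPM). Ncoa4 was highest in untreated cells (141 ± 16.8 CPM) and lowest in acceptors at 300 min (92.4 ± 13.1 CPM). Ireb2 means lay between 40.1 ± 8.42 and 30.8 ± 3.31 CPM and Aco1 means between 36.3 ± 6.31 and 28.0 ± 5.89 CPM.

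**Figure D4:**
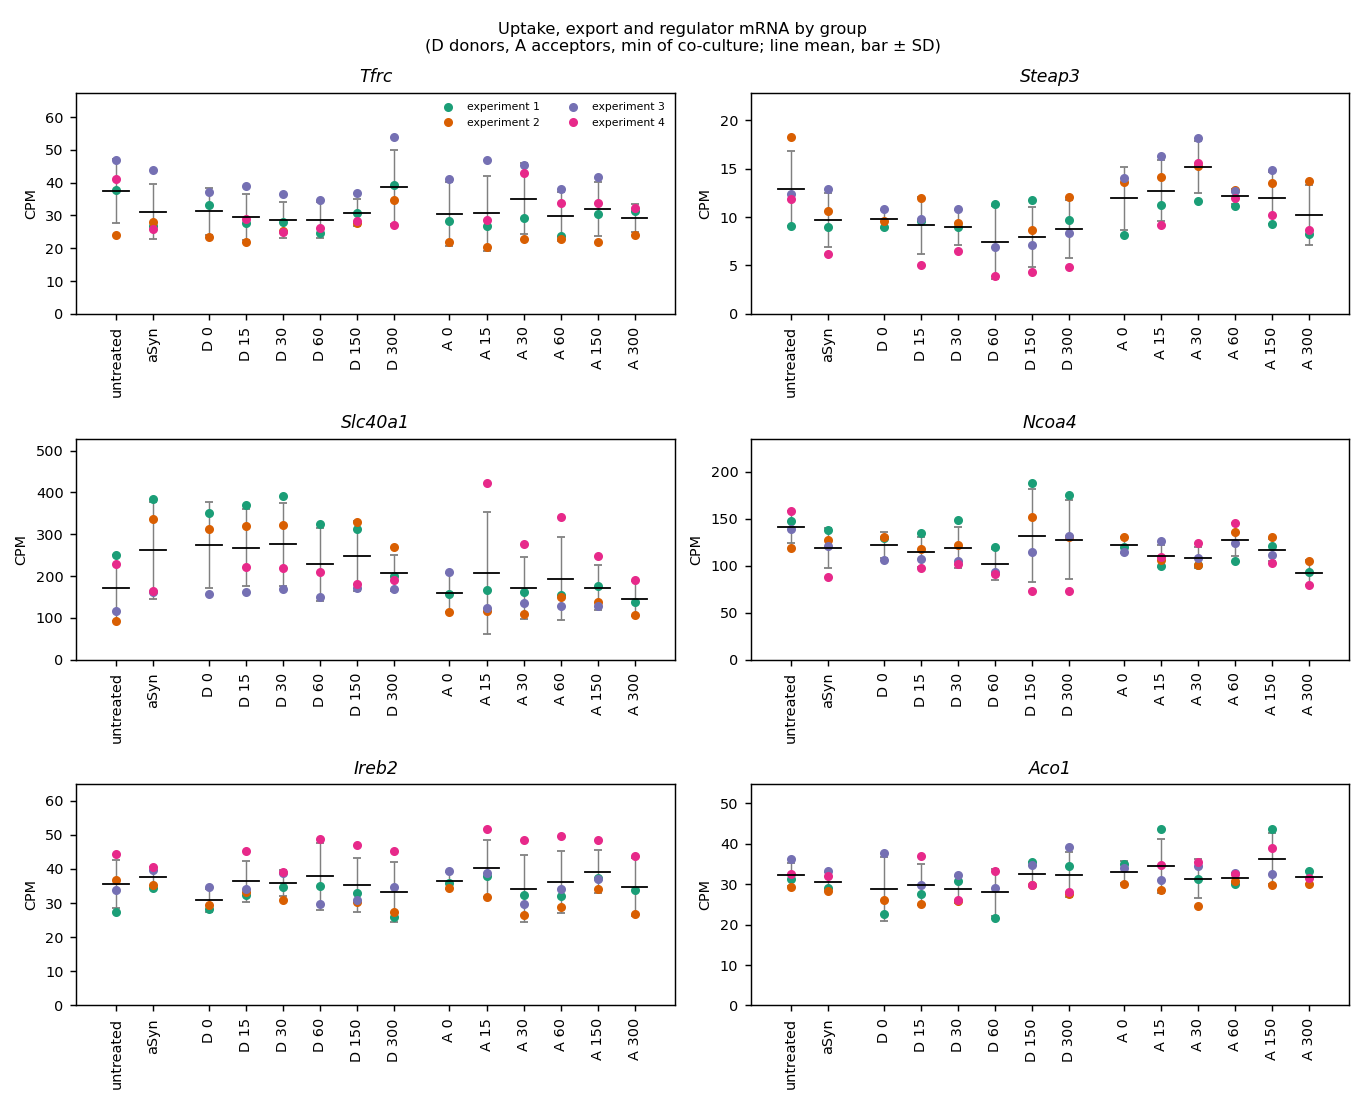
CPM of Tfrc, Steap3, Slc40a1, Ncoa4, Ireb2 and Aco1 in every unit of the 14 groups, 1 point per experiment, with a black line at the group mean and a grey bar for the SD. For Steap3 each mean with aSyn is below each mean without it, and for Slc40a1 experiment 4 stands at up to 423 CPM in acceptors.

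The comparison of acceptors with untreated cells asked whether cells that meet aSyn only in co-culture changed as well. No member was called without the block at any time, 1 of 60 results (Ncoa4 at 300 min) had an unadjusted p-value under 0.05, and DESeq2 called 0. The shares of all genes called were 0, 0, 0.114, 0.0683, 0.137 and 0% from 0 to 300 min, and with DESeq2 0.00759, 0.258, 0.258, 0.524, 0.737 and 0.0304%. With the block edgeR called 1 of 60 (Fth1 at 150 min), where it called 0.995, 2.25, 3.6, 4, 4.78 and 0.623% of all genes, and 2.32% as higher at 150 min. Acceptors at 150 min had Fth1 at 16906, 15294, 23935 and 25693 CPM in experiments 1 to 4, each above the untreated level of its experiment by 1.20-fold to 1.52-fold. The log2 difference was 0.47 with the block (SE 0.14, edgeR adjusted p 0.0441), and this call was lost without experiment 2, 3 or 4 (edgeR adjusted p 0.202, 0.234 and 0.122). Fth1 counts per Ftl1 count at 150 min were higher than in untreated cells in 4 of 4 experiments, by 1.46-fold to 1.49-fold. Fth1 was also above the untreated level of its experiment in every pair at the other times, by 1.101-fold to 1.235-fold at 0 min, 1.05-fold to 1.252-fold at 15 min, 1.06-fold to 1.34-fold at 30 min, 1.05-fold to 1.48-fold at 60 min and 1.01-fold to 1.56-fold at 300 min, and these did not pass the test (edgeR adjusted p 0.175 to 0.523 with the block). The acceptor groups share the same untreated units, so the times are not separate evidence. Without experiment 1 the blocked fit called 3 of 60, which were Fth1 at 60 min (0.45, edgeR adjusted p 0.0414) and 150 min and Slc11a1 at 150 min (0.56, edgeR adjusted p 0.0233), where it called 1.06 and 2.1% of all genes at those times. Ncoa4 at 300 min lay below all untreated units, and groups did not overlap for 5.26% of all genes.

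Donors were compared with aSyn-treated cells to ask what co-culture added. Donors were sorted and the labels do not say whether aSyn-treated cells were, so sorting and co-culture cannot be told apart here. No member was called at any of the 6 times with or without the block or by DESeq2, and 0 of 60 results had an unadjusted p-value under 0.05 without the block. Background shares were 0% from 0 to 150 min and 0.0304% (0.304% with the block) at 300 min. DESeq2 called 0.00759% of all genes at 0 min, 0% from 15 to 150 min and 0.0532% at 300 min. The F tests of change over co-culture time called no member in donors, in acceptors or in the difference between them, in either fit and by DESeq2, and none had an unadjusted p-value under 0.05 without the block. All genes were called at 0.0607, 0.00759 and 0% without the block and 0.577, 0.137 and 0.0456% with it, and by DESeq2 at 0.182, 0.106 and 0.0304%. Tfrc was called for change over time in donors with the block when experiment 4 was left out (edgeR adjusted p 0.014), and 1.58% of genes were called in that fit. In donors of experiments 1 to 3 Tfrc was at 39.3, 34.6 and 53.9 CPM at 300 min and between 22.0 and 38.9 CPM at earlier times, and in experiment 4 it was at 27.1 CPM at 300 min and between 24.9 and 28.9 CPM before.

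**Figure D5:**
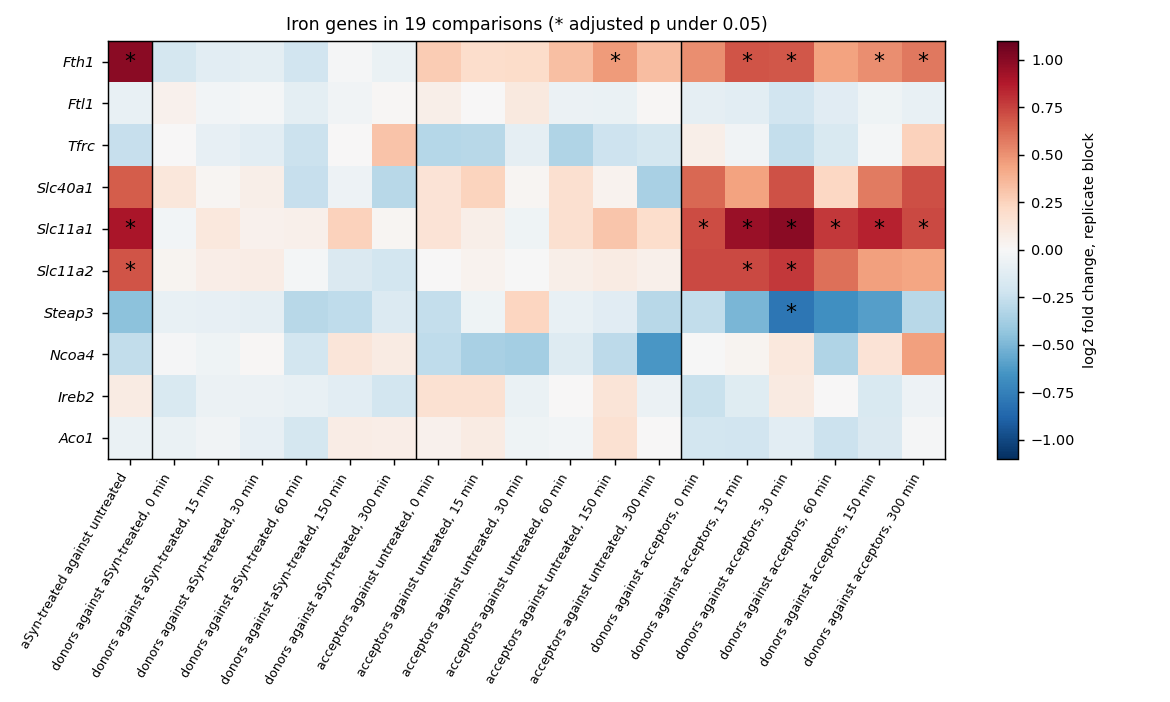
Heat map of log2 differences of the 10 members with the experiment as a block, in columns for the 19 comparisons, with a star where the adjusted p-value is under 0.05. The 17 stars are in the rows of Fth1, Slc11a1, Slc11a2 and Steap3, and the 6 columns of donors against aSyn-treated cells hold none.

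Members differed in the share of their variation that the group took. After a split of the log2 CPM variance over 52 units, the group took 53.2% and the experiment 41.2% for Slc11a1, and 51.9% and 19.1% for Slc11a2. For Fth1 the group took 39.6%, less than the 51.8% of the experiment, and for Steap3 39.1% against 31.1%. The group took 5.12% and the experiment 70.9% for Ftl1, 11.96% and 68.6% for Ireb2, and 16.0% and 64.4% for Tfrc. For Slc40a1, Ncoa4 and Aco1 the group took 29.5, 22.9 and 27.1% and the experiment 21.3, 20.9 and 21.8%. The rest, 49.3 to 56.2%, was left over by a split that only adds group and experiment. That rest includes group differences that were not the same in each experiment. After each experiment's mean was subtracted, Fth1 and Slc11a1 had a Pearson r of 0.90 over the 52 units, Slc11a1 and Slc11a2 0.77, Fth1 and Slc11a2 0.67, Fth1 and Steap3 -0.77, and Fth1 and Ftl1 -0.37. These r values describe units that share groups, libraries and scaling and carry no p-value.

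The genes of the whole table whose pattern was closest to a member were found by the same r. For Fth1 they were Gde1 (0.92), Lmo4 (0.92) and Esd (0.92), and for Slc11a1 they were Adgre5 (0.92), Blvrb (0.92) and H2-M2 (0.91). For Slc40a1 they were Gpr137b-ps (0.81), Gpr137b (0.80) and Ndst1 (0.80), of which Gpr137b and its pseudogene can share reads. For Tfrc the closest genes reached only 0.68 (Vwa5a), 0.68 (Tmem141) and 0.65 (Mdh1).

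Other genes of iron handling, from lists written with earlier results of these data known, were examined in aSyn-treated against untreated cells. Among 14 tested heme genes, Alas1, the first enzyme of heme synthesis, was called in both fits. Its level was 62.6 to 77.6 CPM over untreated units and 149.6 to 175 CPM over aSyn-treated ones, without overlap, as for 8.1% of all genes. The log2 difference was 1.22 (SE 0.17, edgeR adjusted p 4.38e-05) without the block, and Alas1 was higher in 4 of 4 experiments. It was the only iron or heme gene outside the 10 members called without the block. With the block 5 of 14 heme genes were called, 3 higher and 2 lower, where 8.95% of all genes were called higher and 10.2% lower. Hmox1 and Blvrb, which act in turn on heme and biliverdin, were higher by 0.70 and 0.57 (edgeR adjusted p 0.0172 and 0.00145), each in 3 of 4 experiments, and Hmox2, another heme oxygenase, had a log2 difference of -0.61 (edgeR adjusted p 0.029). The other lower gene was Cpox, an enzyme of heme synthesis (-0.50, edgeR adjusted p 0.00715), which is named after its values were seen. The median over the heme list was -0.05 with the block, as over all genes.

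The blocked fit called 10.2% of all genes as lower. Of 11 tested genes for other uptake routes, transport and reduction of iron, it called 3, all lower. They were Slc22a17, a receptor for lipocalin (-1.16, edgeR adjusted p 0.0142), Lrp1, an endocytic receptor that takes up heme bound to hemopexin (-0.82, edgeR adjusted p 0.000122), and Snx3, a sorting protein that recycles the transferrin receptor (-0.33, edgeR adjusted p 0.0229). Lrp1 and Snx3 were lower in 4 of 4 experiments and Slc22a17 in 3 of 4. The list median was -0.33. Of 15 tested genes of iron-sulfur cluster assembly 2 were called, Cisd2 (0.38, edgeR adjusted p 0.022) and Lyrm4 (0.35, edgeR adjusted p 0.0286), both higher in 4 of 4 experiments, where the blocked fit called 19.2% of all genes and 8.95% as higher. None of 3 tested ferroxidase or ferroportin regulator genes and none of 5 further storage and sensing genes was called in either fit. Without experiment 4 the blocked fit called 1 of 11 uptake genes and 4 of 13 heme genes, where it called 12.4% of all genes. Astrocyte markers moved alongside: 5 of 8 were lower in aSyn-treated cells with the block (median -1.90), as were 2 of 8 oligodendrocyte lineage markers (Olig2 and Pdgfra), and their part in the lower uptake genes was not tested.

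The same lists were read in donors against acceptors, where astrocyte markers summed to similar levels in both (8.79 to 35.3 CPM in donors and 7.59 to 42.3 CPM in acceptors) and 1 of 8 was called lower in donors, at 15 min, with the block. Alas1 was higher in donors at 15, 30, 60 and 150 min without the block (0.79 to 1.09) and at all 6 times with it. Blvrb was called higher with the block at 15, 30, 60 and 150 min (0.59 to 0.75), and Hmox1 at 15, 30 and 60 min (0.79 to 0.86). Lrp1 was called lower with the block at 0, 15, 30 and 150 min (-0.64 to -0.52). Slc25a37, an iron importer of the mitochondrion that was chosen after its values were seen, was called higher at 15 and 60 min (0.98 and 1.00, edgeR adjusted p 0.00988 and 0.0187).

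The windows around transcription starts (250 bases before to 50 after, RefSeq, listed for 8 of the 10 members) were searched on both strands for the core of the antioxidant response element, TGACNNNGC, through which Nrf2 acts on ferritin genes. It was found in 1 member, Ncoa4, and in the windows of 14% of 27025 genes. The absence of these letters from the other windows says nothing of sites elsewhere.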

How the data were processed

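RNA was measured by QuantSeq 3′ sequencing in 54 libraries of 14 groups. The deposited table holds the authors' raw read counts for 16632 genes, and the submitters' processing notes name STAR, Partek, DESeq2 and mm10. Versions, the annotation and the use of strand are not given in the sources used here. The authors also deposited a normalized signal, which matched the counts divided by DESeq2 size factors in 100% of values (tolerance 0.05) and was used for this check only. Members and lists were chosen with earlier results of these data known.

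Counts were fitted with edgeR 4.0.16 (R 4.3.3) by the quasi-likelihood test with TMM scaling, after the filterByExpr filter (minimum count 10) left 13169 genes. One mean per group was fitted over 52 units, and 19 pairwise comparisons and 3 F tests were made. P-values were adjusted by the Benjamini-Hochberg method over all genes tested, and an adjusted p-value under 0.05 was called. Log2 differences of the edgeR fits use its default prior count, and those of same-experiment pairs are ratios of CPM with none. The log2 CPM behind the correlations and the variance split use a prior count of 2. Each edgeR SE is the absolute log2 difference over the square root of the F statistic. The labels give groups the same replicate numbers. Same-numbered libraries deviated together in every pair (lowest correlation 0.20, means by comparison 0.34 to 0.59), so the number was taken to pair libraries, and the fit with the number as a block is given beside each result it changed. The biological coefficient of variation was 38.1% without and 21.0% with the block. Untreated libraries of 1 number differed less (chi-square per degree of freedom 10.3 and 12.1) than other pairs of untreated libraries (24.2 to 288) and were summed.

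Alternatives were DESeq2 1.42.0, its size factors, no filter, only the groups compared, separate untreated libraries, the block, and leaving out each experiment. All 10 members were named. From the other lists, genes called in aSyn-treated against untreated cells were named, at most 4 per list, and for 4 members the 3 genes most alike in pattern. The scripts were tested on simulated counts. Libraries held 7807389 to 15537493 counts, and counting error matters most for Steap3, with as few as 50 counts in a library.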

Additional observations from a re-analysis of the deposited data

Results flagged for a closer look

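In groups of 4 experiments, a member was listed when 1 value lay far from the other 3 by Dixon's criterion. This was so for 8 of 100 groups tested, and chance gives about 1 in 20. Of the 8, 7 were the experiment 4 unit and all were the highest of their group. Slc11a2 was at 212.5 CPM in aSyn-treated cells of experiment 4 against 115 to 122 CPM in experiments 1 to 3, at 221.6 CPM in donors at 15 min against 119 to 135 CPM, and at 214.6 CPM in donors at 30 min against 126 to 128 CPM. Slc40a1 was at 423.3 CPM in acceptors of experiment 4 at 15 min against 116 to 167 CPM, and at 342.2 CPM at 60 min against 127 to 155 CPM. Ireb2 was at 45.36 CPM in donors of experiment 4 at 15 min against 32.3 to 34.2 CPM, and at 46.85 CPM at 150 min against 30.2 to 32.9 CPM. Tfrc was at 43.81 CPM in aSyn-treated cells of experiment 3 against 25.9 to 28.1 CPM in the others.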

How the results depend on the processing

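The main edgeR fit without the replicate block called no member in any comparison, also when each experiment was left out of it in turn (lowest and highest 0 and 0). For aSyn-treated against untreated cells, 3 members were called with the replicate block, 1 by the DESeq2 test and 3 with untreated libraries separate. The fit with separate untreated libraries counted same-numbered libraries as independent. Leaving out each experiment from the blocked fit gave 2 to 3. For acceptors against untreated cells the block gave 1 call and 0 to 3 when experiments were left out. For donors against acceptors it gave 13, and 15, 5, 11 and 13 without experiments 1, 2, 3 and 4. The calls over all genes moved as well. For donors against acceptors at 15 min they went from 1260 (9.57%) to 730, 584, 704 and 871 (6.66%). For aSyn-treated against untreated cells they went from 2524 (19.2%) to 1620 (12.4%) without experiment 4. For acceptors against untreated cells at 150 min they went from 630 (4.78%) to 280 (2.1%) without experiment 1. The change over time in donors gave 0 to 1 calls in the blocked fit, the 1 being Tfrc without experiment 4. DESeq2 size factors, no low-count filter and fitting only the groups compared gave 0 calls in each comparison.

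The Ftl1 difference between aSyn-treated and untreated cells changed sign to 0.00811 with untreated libraries separate and to 0.0343 in the blocked fit without experiment 4, and it ranged from -0.1850 to 0.0502 when single experiments were left out of the unblocked fit. The Slc40a1 difference between donors and acceptors at 60 min ranged from -0.1809 to 0.7233 in the same way and was -0.0928 in the blocked fit without experiment 1. The cause was not tested. Of the values under alternatives whose sign differed from the main value, 0 were called. The low count of Steap3 limits its precision.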

Other observations

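Fth1 counts per Ftl1 count also differed by co-culture group. In donors of experiment 4 the ratio was 3.16 to 3.97 at 15 to 300 min, against 0.722 to 1.08 in donors of experiment 1 and 1.34 to 1.68 in those of experiment 3. In acceptors it was above that of untreated cells of the same experiment in 4 of 4 experiments at 15, 60 and 150 min (1.13-fold to 1.17-fold, 1.21-fold to 1.45-fold and 1.46-fold to 1.49-fold) and in 3 of 3 at 300 min. At 0 min it was above in 2 of 3 experiments and at 30 min in 3 of 4. These ratios were described with no test.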
